A study of Mus musculus with 9 samples.

Results

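The genes described here are the collagen chains, the enzymes that cross-link and modify collagen, and 9 further matrix genes, in mouse embryonic fibroblasts on the way to induced pluripotent stem cells. They were chosen by symbol alone: every row named as a collagen chain, a lysyl oxidase or a lysyl hydroxylase, together with Fn1, Sparc, Postn, Dcn, Lum, Bgn, Fbn1, Eln and Serpinh1. This gave 46 of the 12550 genes of the table, of which 29 are collagen chains, and all 46 passed the filter on low values used for testing. The cells were C57Bl/6 fibroblasts transfected with plasmids for Oct4, Sox2, Klf4 and c-Myc and grown in embryonic stem cell medium with serum and LIF, and this held for every library. The arms differed in the pretroSuper hairpin they received: one against Hnrnpk, one against the long noncoding RNA lincRNA-p21, and one against luciferase as the control. Each arm was sampled on days 6, 9 and 12, with 1 library per arm and day, 9 in all, each described by its submitters as merged replicates. The dishes were mixed populations, and the labels do not say what share of cells took up the plasmids or the hairpins. Hnrnpk encodes a nuclear RNA-binding protein, and lincRNA-p21 is a p53-induced transcript known in mouse cells to act together with it.

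Collagens are triple helices of 3 chains. The fibrillar collagens (types I, II, III, V, XI and relatives) build the load-bearing fibres that fibroblasts lay down, whereas type IV collagen forms the sheet-like network of basement membranes, to which types VII, XV and XVIII attach. Lysyl hydroxylases (Plod genes) and the chaperone Serpinh1 (HSP47) act on the chains inside the cell, and lysyl oxidases (Lox and Loxl genes) start the cross-links between the secreted chains and elastin. Reprogramming of fibroblasts is known to pass through a mesenchymal-to-epithelial transition, in which fibroblast genes decline and junction and keratin genes appear.

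The 4 upstream sequences shown are those of Col17a1 and Col7a1, epithelial anchoring collagens that were called higher on day 12, and of Col4a5 and Col4a6, head-to-head neighbours whose signals were both highest in the lincRNA-p21 library of day 6 but which passed no test for day or between arms over all days. They are from RefSeq on GRCm38.p6, written 5′ to 3′ on the strand of the gene, in the 250 bases before its start and without bases that lie in an annotated exon, and capitals mark a match on either strand to the CCAAT box, to the GC box written GGGCGG or to the TATA-type run TATAAA. The Col17a1 stretch is chr19:47692095-47692292 (minus strand), that of Col7a1 chr9:108953336-108953585 (plus), that of Col4a5 chrX:141475169-141475384 (plus) and that of Col4a6 chrX:141474077-141474326 (minus).
Col17a1: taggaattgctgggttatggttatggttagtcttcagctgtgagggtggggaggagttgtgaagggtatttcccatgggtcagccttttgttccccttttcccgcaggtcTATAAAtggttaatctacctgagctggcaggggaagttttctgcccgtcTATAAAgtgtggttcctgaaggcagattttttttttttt
Col7a1: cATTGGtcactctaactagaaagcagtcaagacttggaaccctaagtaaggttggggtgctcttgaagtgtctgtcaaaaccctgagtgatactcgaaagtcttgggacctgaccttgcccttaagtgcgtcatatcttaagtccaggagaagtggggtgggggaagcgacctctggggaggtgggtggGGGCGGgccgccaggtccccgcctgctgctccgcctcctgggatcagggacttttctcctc
Col4a5: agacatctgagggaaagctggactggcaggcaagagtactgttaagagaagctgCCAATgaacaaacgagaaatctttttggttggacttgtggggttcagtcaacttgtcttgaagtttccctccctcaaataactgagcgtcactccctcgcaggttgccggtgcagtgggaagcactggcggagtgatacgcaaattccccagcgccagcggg
Col4a6: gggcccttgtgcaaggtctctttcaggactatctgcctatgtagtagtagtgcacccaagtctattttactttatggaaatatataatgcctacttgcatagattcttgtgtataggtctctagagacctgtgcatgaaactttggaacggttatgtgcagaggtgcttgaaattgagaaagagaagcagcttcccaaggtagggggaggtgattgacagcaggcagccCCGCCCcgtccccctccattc
Col4a5 and Col4a6 are transcribed away from each other from RefSeq starts 1343 bases apart, and the starts of Col4a1 and Col4a2 on chromosome 8 lie 21 bases apart in the same head-to-head arrangement. The RefSeq promoter table held 31 of the 46 genes. Over the 250 bases before the start, GGGCGG occurred in 20 of these 31, against 32.742% of all 32851 windows, CCAAT in 12 of 31 against 33.85%, and TATAAA in 6 of 31 against 12.368%. The counts are of genes with a match in any of their windows, whereas the percentages are of single windows. These counts keep exon bases, whereas the printed stretches leave them out. Col17a1 is thus counted for CCAAT and Col4a5 for GGGCGG, although their printed stretches hold no such match. These matches are descriptions of letters and show no binding.

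The deposited values are a normalized signal with no read counts behind them, so depth per library is unknown and levels can be compared between libraries but not between genes. Every column shares 1 highest value, 118715, and 18 genes reach it in at least 1 library. Differences are given on the scale of log2(signal + 10), in which low genes are understated. The hairpin targets were lower in their own arms. Hnrnpk was at 11349, 17016 and 12793 in its own arm on days 6, 9 and 12, against 31243, 26944 and 23376 in the luciferase arm. Trp53cor1, the gene of lincRNA-p21, was at 90.5, 122 and 97 in the lincRNA-p21 arm against 286.5, 237 and 250 in the luciferase arm, and it was also low, at 131, 137 and 119.5, in the Hnrnpk arm. All 11 listed fibroblast markers were in the table, and 8 of them fell between days 6 and 12 with arms pooled (limma, adjusted p under 0.05), while 10 of 10 epithelial markers rose. Over all genes tested, 27% were called lower and 22.3% higher. The summed signal of the epithelial markers was 5792.5, 25537 and 45954 in the Hnrnpk arm, 3115.5, 14211 and 23613.5 in the lincRNA-p21 arm and 5112, 17494 and 26023.5 in the luciferase arm over the 3 days. That of 10 pluripotency markers was 384.5, 5758 and 11213.5 in the Hnrnpk arm, 354, 2492 and 7039 in the lincRNA-p21 arm and 378.5, 1023 and 1241.5 in the luciferase arm. Of other cell types, 1 of 6 endothelial markers (Tek) and 1 of 7 macrophage markers (Cd68) were in the table. In such mixed dishes, fewer fibroblasts and less matrix RNA per fibroblast cannot be told apart, and the part of cell mixture in the differences below was not tested.

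Taken over the arms, the matrix genes did not decline as a block between days 6 and 12. Of the 46 genes, 14 were higher and 10 lower on day 12 (limma over arm and day, adjusted p under 0.05, 3 libraries on each day), against 22.3% of all 12541 genes tested called higher and 27% lower. In both directions this was 52.2% of the 46, near the 49.3% of all genes, and their median difference was -0.03, against -0.04 for all genes tested. The largest rise was that of Col17a1, at 3.57 on the log2 scale, and the largest fall that of Col27a1, at -1.94. By day 9, 13 of the 46 already differed from day 6, 10 higher and 3 lower, against 39.9% of all genes called (18.9% higher and 21% lower). Between days 9 and 12 limma called none, against 0.654% of all genes called. At an unadjusted p under 0.05 in that comparison were 11 of the 46, beside 1769 of all 12541 genes. What changed by role is given in the following paragraphs, in which the 3 values of an arm stand in the order of days 6, 9 and 12.

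**Figure D1:**
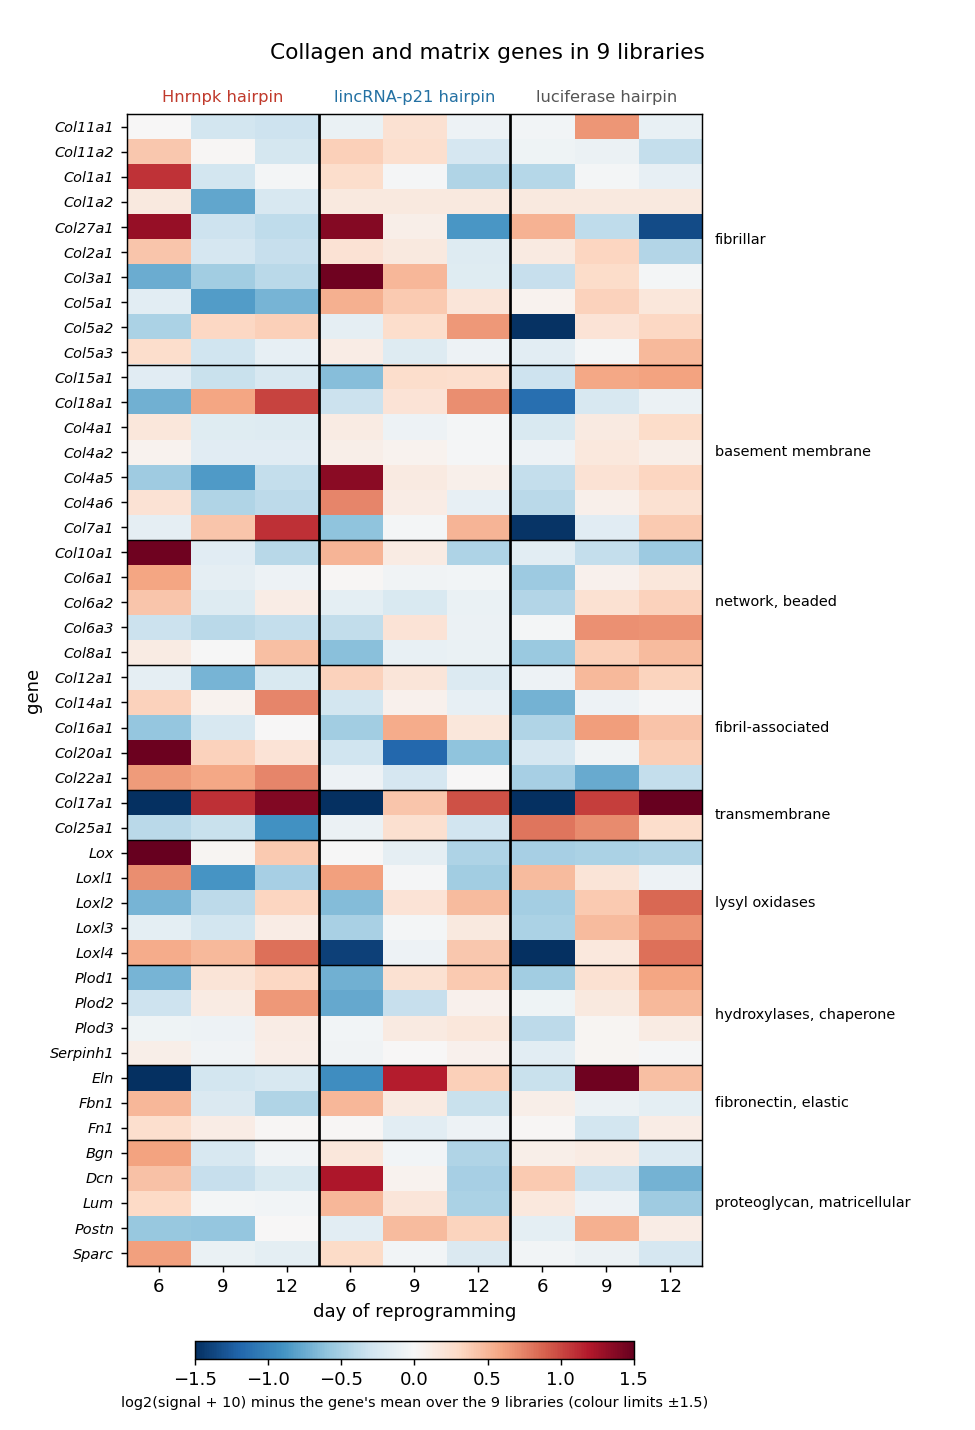
Signal of the 46 genes (rows, grouped by role) in the 9 libraries (columns, by hairpin and day), as log2(signal + 10) minus the gene's mean over the libraries; red is above and blue below that mean, with colours limited at 1.5. The Hnrnpk column is the highest of the 9 for 13 genes on day 6 and the lowest for 10 on day 9, and the luciferase column is the lowest for 11 on day 6 and the highest for 8 on day 9. Ties are counted in each tied column.

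Among the fibrillar collagens, 1 of 10 rose and 3 fell between days 6 and 12, beside 22.3% of all genes called higher and 27% lower. The chains of types I and III were not among those called. Col1a1 (chr11:94936224-94953042, the major chain of type I collagen) had 62313, 24167 and 28824 in the Hnrnpk arm, 35392.5, 29075 and 21438.5 in the lincRNA-p21 arm and 21817, 28824 and 26978 in the luciferase arm. Its highest value was thus that of the Hnrnpk library of day 6, and on days 9 and 12 all libraries lay between 21438.5 and 29075. The log2 difference of day 12 from day 6 was -0.51 ± 0.30 (SE, adjusted p = 0.186, limma). Its partner Col1a2 stood at the highest value of the table in 7 of 9 libraries and at 62336 and 90525.5 in the Hnrnpk arm on days 9 and 12, so that its changes between the other libraries could not be read. Col3a1, the chain of type III collagen, had 14760, 17227.5 and 18665 in the Hnrnpk arm, 67808.5, 34933 and 21757.5 in the lincRNA-p21 arm and 19438.5, 30018 and 24187.5 in the luciferase arm. The lincRNA-p21 arm was highest on days 6 and 9, the Hnrnpk arm lowest on all days, and the arm difference between lincRNA-p21 and Hnrnpk, 1.15 ± 0.35, missed the threshold (adjusted p = 0.122, limma). With steps this wide near the top of the scale, the size of the type I and type III differences on day 6 is uncertain.

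Types V and XI nucleate and regulate the thickness of type I fibres. Col5a1 had 6730, 4215 and 4658 in the Hnrnpk arm, 10919, 9918.5 and 8560.5 in the lincRNA-p21 arm and 7842, 9600 and 8511 in the luciferase arm. Every Hnrnpk library lay below every library of the other arms. Col5a1 (chr2:27886425-28039514) was lower with Hnrnpk knockdown than with luciferase, by a log2 difference of -0.76 ± 0.17 (adjusted p = 0.0236, limma), and higher in the lincRNA-p21 arm than in the Hnrnpk arm by 0.94 ± 0.17 (adjusted p = 0.0291), a call that held in 3 of 9 fits that each left out 1 library. Its exons share bases with genes on the opposite strand, and the labels do not say whether the libraries kept strand. Col5a2, the other common type V chain, was the one fibrillar chain that rose. It had 16783, 28894.5 and 29745.5 in the Hnrnpk arm, 21176.5, 27923 and 36481.5 in the lincRNA-p21 arm and 8332.5, 26900.5 and 28840 in the luciferase arm. All 3 arms climbed from day 6 to day 9, and the difference of day 12 from day 6 was 1.13 ± 0.23 (adjusted p = 0.00400, limma). Col5a2 (chr1:45374321-45503282, minus strand) lies beside Col3a1 (chr1:45311538-45349706, plus strand), whose course differed.

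Col11a1 had 2667, 2196 and 2145.5 in the Hnrnpk arm, 2479.5, 3109 and 2518 in the lincRNA-p21 arm and 2581.5, 4206 and 2463 in the luciferase arm. It peaked on day 9 in the lincRNA-p21 and luciferase arms and not in the Hnrnpk arm, and passed no test. The 3 fibrillar chains that fell were Col27a1, Col2a1 and Col11a2. Col27a1 declined in every arm and had 113, 30 and 28 in the Hnrnpk arm, 118.5, 42.5 and 17 in the lincRNA-p21 arm and 61, 28 and 9.5 in the luciferase arm (-1.94 ± 0.24 on day 12, adjusted p = 0.000346, limma). Col2a1, the main cartilage collagen, ranged from 933 to 1705 over the 9 libraries and fell by 0.59 on the log2 scale between days 6 and 12. Col11a2, a chain of type XI, ranged from 88.5 to 157 and fell by 0.52, a call that held in 5 of 9 fits that left out a library. Of 10 cartilage and bone cell markers 4 were in the table, of which Sox9 and Runx2 fell by 1.61 and 1.36 and Alpl rose by 0.90, and their summed signal was 2244.5, 2201.5 and 2197 in the Hnrnpk arm, 2053, 1797 and 2089.5 in the lincRNA-p21 arm and 2127, 2216.5 and 3193 in the luciferase arm, whose part in these falls was not tested. Col5a3 is described with the time slopes below.

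Of the 7 basement membrane chains, 3 were called higher on day 12 (Col7a1, Col18a1 and Col15a1) and none lower, beside 22.3% of all genes called higher and 27% lower. The 4 type IV chains passed the test in neither direction, and the difference between them and the other 3 was not tested. Col7a1 (chr9:108953586-108984875), the chain of the anchoring fibrils that tie epithelial basement membrane to the tissue below, had 275, 405 and 658 in the Hnrnpk arm, 195.5, 294.5 and 433 in the lincRNA-p21 arm and 102, 266 and 399.5 in the luciferase arm. It climbed at each step in each arm, and on each day the Hnrnpk arm was highest and the luciferase arm lowest. The difference of day 12 from day 6 was 1.40 ± 0.17 (adjusted p = 0.000298) and that of the Hnrnpk arm from luciferase 0.88 ± 0.17 (adjusted p = 0.0137, both limma). Col18a1 (chr10:77052178-77166548), the proteoglycan-like collagen from which endostatin is cut, had 915.5, 2277 and 3055 in the Hnrnpk arm, 1207.5, 1740.5 and 2451 in the lincRNA-p21 arm and 683, 1279.5 and 1418 in the luciferase arm. Here too every arm climbed at each step and the luciferase arm was lowest on each day. The corresponding differences were 1.26 ± 0.16 for day 12 (adjusted p = 0.000378) and 0.78 ± 0.16 for the Hnrnpk arm (adjusted p = 0.0168, limma). Col15a1, a close relative of Col18a1, had 1076.5, 955.5 and 1025 in the Hnrnpk arm, 775, 1451 and 1443 in the lincRNA-p21 arm and 971.5, 1806.5 and 1842.5 in the luciferase arm. It did not climb in the Hnrnpk arm, and its call for day 12 (0.58 ± 0.21, adjusted p = 0.0476, limma) held in 3 of 9 fits that each left out 1 library.

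Type IV chains form the network itself. Col4a1 (chr8:11198423-11312826) had 20891, 16377 and 16219.5 in the Hnrnpk arm, 20165.5, 17659 and 18126 in the lincRNA-p21 arm and 15868, 20375 and 22515.5 in the luciferase arm. Col4a2 (chr8:11312805-11449287) had 18189.5, 15469 and 15469 in the Hnrnpk arm, 18563.5, 18091 and 17266 in the lincRNA-p21 arm and 16593, 19491 and 18546 in the luciferase arm. Both knockdown arms stood above luciferase on day 6 and below it on days 9 and 12. The X-linked pair did so in part. Col4a5 (chrX:141475385-141689234) had 2267, 1814 and 2553 in the Hnrnpk arm, 8370, 3588.5 and 3457 in the lincRNA-p21 arm and 2554, 3819 and 4093 in the luciferase arm. Col4a6 (chrX:141165403-141474076) had 455, 281.5 and 293.5 in the Hnrnpk arm, 653.5, 420 and 355.5 in the lincRNA-p21 arm and 290.5, 411 and 457 in the luciferase arm. In this head-to-head pair both genes had their highest value of the 9 in the lincRNA-p21 library of day 6 and were below luciferase in the Hnrnpk libraries of days 9 and 12. With arms pooled, the differences of day 12 from day 6 were -0.00, -0.06, -0.14 and -0.28 for Col4a1, Col4a2, Col4a5 and Col4a6, with SEs of 0.17, 0.12, 0.33 and 0.26.

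Within arms the fibrillar and basement membrane chains can be set side by side, as differences of day 12 from day 6 between single libraries with no test. With Hnrnpk knockdown the median was -0.46 for the 10 fibrillar chains, -0.07 for the 7 basement membrane chains and -0.30 for the type IV chains alone. With lincRNA-p21 knockdown these medians were -0.39, -0.10 and -0.51, and with the luciferase hairpin they were 0.06, 0.68 and 0.57. The basement membrane median was thus above the fibrillar median in each arm. For the type IV chains alone this did not hold with lincRNA-p21 knockdown, where their median was the lower. The luciferase arm was the one in which all 7 basement membrane chains were higher on day 12. Over all genes tested the medians were -0.05 with Hnrnpk knockdown, -0.04 with lincRNA-p21 knockdown and -0.04 with luciferase.

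**Figure D2:**
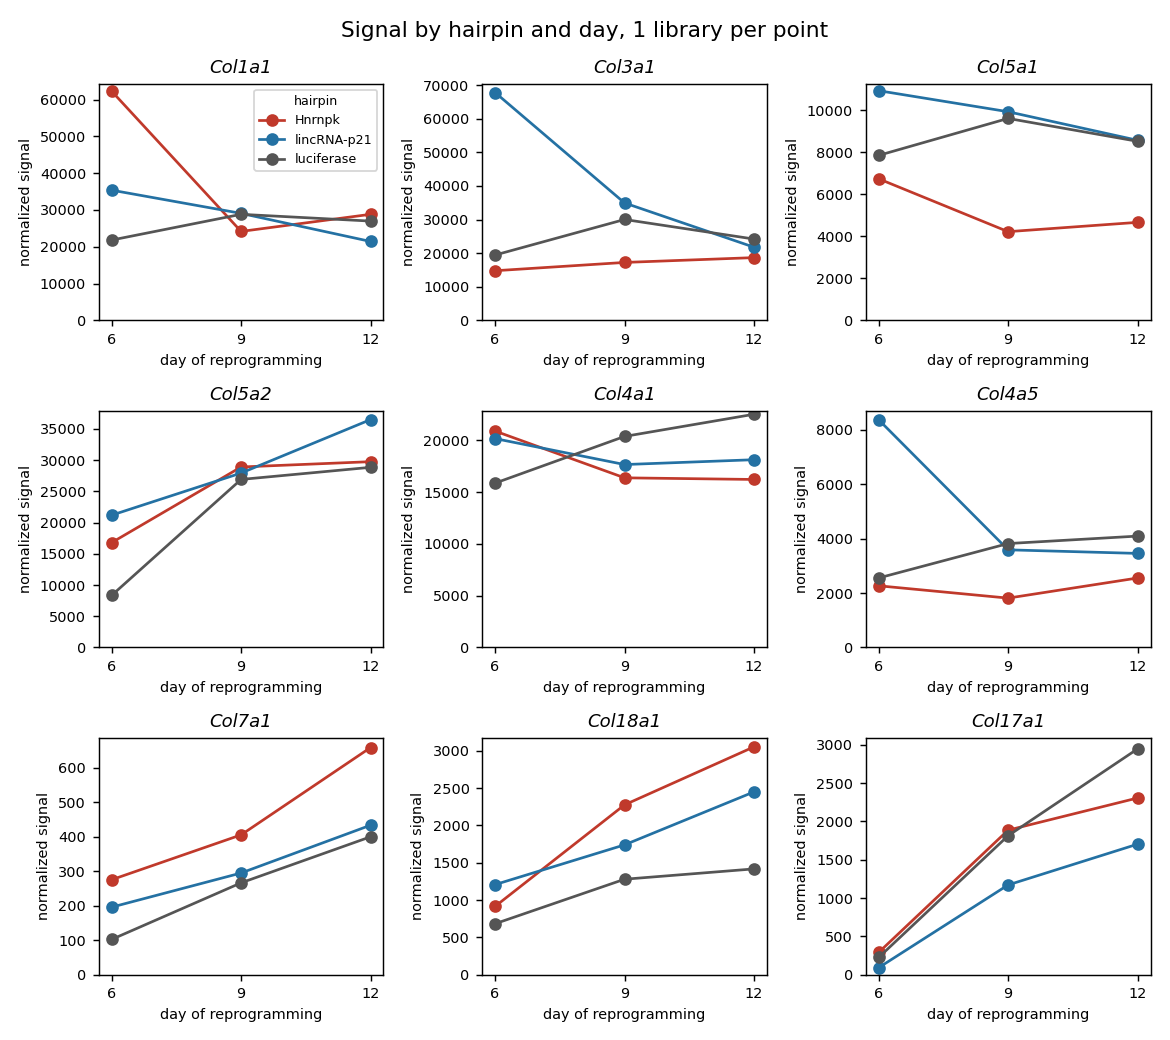
Normalized signal (vertical axes from 0) against day for fibrillar chains (Col1a1, Col3a1, Col5a1, Col5a2), basement membrane chains (Col4a1, Col4a5, Col7a1, Col18a1) and Col17a1, with 1 line per hairpin and 1 library per point. Col1a1, Col3a1 and Col4a5 are furthest apart between arms on day 6, with 1 knockdown library far above the others, Col5a1 stays lowest in the Hnrnpk arm, and Col5a2, Col7a1, Col18a1 and Col17a1 climb in all arms.

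Col17a1 (chr19:47646344-47692094), a transmembrane collagen of the hemidesmosomes that anchor epithelial cells, changed most. It had 289.5, 1887 and 2307 in the Hnrnpk arm, 90.5, 1171.5 and 1704 in the lincRNA-p21 arm and 224, 1814 and 2948 in the luciferase arm. All day 6 values lay below all later ones, and the lincRNA-p21 arm was lowest on each day. The rise from day 6 was 3.06 ± 0.19 by day 9 (adjusted p = 3.9e-05) and 3.57 ± 0.19 by day 12 (adjusted p = 7.11e-06, limma), an 11.9-fold difference. The lincRNA-p21 arm differed from the Hnrnpk arm by -0.90 ± 0.19 (adjusted p = 0.0474), a call that held in 1 of 9 fits that left out a library, and from the luciferase arm by -0.88 ± 0.19 (adjusted p = 0.113, limma). Of the keratinocyte markers, 5 of 6 were in the table. From day 6 to day 9 Krt5, Krt14, Krt6a and Sfn rose in each arm. Ivl fell in that step, from 168.5 to 66 in the Hnrnpk arm, 31 to 16 in the lincRNA-p21 arm and 8.5 to 7 in the luciferase arm. The sum over the 5 was 2355.5, 11842 and 19140 in the Hnrnpk arm, 1348.5, 6580.5 and 9679.5 in the lincRNA-p21 arm and 1040, 6976.5 and 9969 in the luciferase arm. Their part in the result was not tested. Trp63, a defining factor of that cell type, was not among the genes of the table. Col25a1, a transmembrane collagen best known from neurons, had 45.5, 48 and 29 in the Hnrnpk arm, 59, 76.5 and 50 in the lincRNA-p21 arm and 118, 110 and 78 in the luciferase arm. No Hnrnpk library reached the lowest of the other arms, and the difference from luciferase was -1.14 ± 0.17 (adjusted p = 0.00595, limma).

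The fibril-associated chains decorate the surface of fibres, and 1 of 5, Col16a1, which ranged from 456 to 1063, rose between days 6 and 12 (0.72 ± 0.16, adjusted p = 0.00540, limma). None was called lower, beside 22.3% of all genes called higher and 27% lower. Col22a1, a chain of tissue junctions, had low signal, with 77, 73.5 and 82.5 in the Hnrnpk arm, 43, 37 and 46 in the lincRNA-p21 arm and 29.5, 23 and 33.5 in the luciferase arm. The arms did not overlap, and day had little part in it. The Hnrnpk arm was above luciferase by 1.19 ± 0.18 (adjusted p = 0.00609, limma). Col12a1 and Col14a1, which bind fibrils of type I, ranged from 2210 to 5028.5 and from 136 to 384.5 over the 9 libraries, and neither was called for arm or day.

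Of the network and beaded-filament chains, 1 of 5 rose and 1 fell between days 6 and 12, beside 22.3% of all genes called higher and 27% lower. Col8a1, known from vessel walls and cornea, ranged from 1061.5 to 2287 and rose by 0.63 ± 0.18 (adjusted p = 0.0180, limma). Col10a1, the collagen of hypertrophic cartilage, ranged from 41 to 194 and fell by 1.08 (adjusted p = 0.0161, limma). Type VI collagen is a microfibril of 3 different chains around cells, and these did not move alike. Col6a3 (chr1:90765923-90843971), the largest of the chains, had 4627, 4364 and 4523 in the Hnrnpk arm, 4480.5, 6691 and 5458 in the lincRNA-p21 arm and 5679, 9340 and 9277 in the luciferase arm. It was flat in the Hnrnpk arm and below luciferase there on each day, by -0.81 ± 0.16 over the days (adjusted p = 0.0164, limma). Col6a1 had 20412.5, 12323 and 12783.5 in the Hnrnpk arm, 13645.5, 13082.5 and 13152 in the lincRNA-p21 arm and 9246, 14178.5 and 15215 in the luciferase arm, so that the order of the arms on day 6 was turned round on day 12. Col6a2 ranged from 5257 in the luciferase library of day 6 to 9507 in the Hnrnpk library of day 6 and was not called.

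The lysyl oxidases split by member. Between days 6 and 12, Loxl2, Loxl3 and Loxl4 rose, Loxl1 fell, and Lox, the founding member, passed no test for day. Over all genes tested, 22.3% were called higher and 27% lower. Lox had 11211.5, 3711 and 4774.5 in the Hnrnpk arm, 3647.5, 3310 and 2643 in the lincRNA-p21 arm and 2575, 2622.5 and 2677 in the luciferase arm. Each Hnrnpk library was above every library of the other arms, and the difference from luciferase was 1.15 ± 0.28 (adjusted p = 0.0314, limma), a call that held in 4 of 9 fits that left out a library. Loxl1, which acts on elastic fibres, had 1599.5, 528 and 691.5 in the Hnrnpk arm, 1503.5, 972 and 680 in the lincRNA-p21 arm and 1367, 1126.5 and 927.5 in the luciferase arm. Day 6 was highest in each arm, and the difference of day 12 was -0.96 ± 0.22 (adjusted p = 0.00723, limma).

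Loxl2 (chr14:69609068-69695834), which also cross-links type IV collagen, had 2052.5, 2549 and 4165 in the Hnrnpk arm, 2123.5, 3866.5 and 4639 in the lincRNA-p21 arm and 2337, 4373 and 6090 in the luciferase arm. It climbed at each step in each arm, by 1.17 ± 0.13 from day 6 to day 12 (adjusted p = 0.000220, limma). The Hnrnpk arm was lowest on each day, by -0.50 ± 0.13 against luciferase (adjusted p = 0.0425, limma), and that call held in 2 of 9 fits that left out a library. Loxl3 had 1199.5, 1092.5 and 1432 in the Hnrnpk arm, 942.5, 1297 and 1467.5 in the lincRNA-p21 arm and 950, 1835.5 and 2117 in the luciferase arm, and rose by 0.68 ± 0.18 to day 12 with arms pooled. Loxl4 had 2959, 2828 and 3589.5 in the Hnrnpk arm, 758, 1910.5 and 2670.5 in the lincRNA-p21 arm and 576, 2259 and 3590 in the luciferase arm. In the Hnrnpk arm it was already on day 6 near the level that luciferase reached between days 9 and 12. Loxl3 shares 535 exon bases with the opposite-strand gene Htra2.

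All 3 lysyl hydroxylases rose between days 6 and 12, beside 22.3% of all genes called higher, and the chaperone Serpinh1 was not called. Plod1, which acts on the helical part of the chains, had 2463, 4566.5 and 4991 in the Hnrnpk arm, 2438, 4683 and 5252 in the lincRNA-p21 arm and 2793.5, 4688 and 6049.5 in the luciferase arm. The arms ran close together, and the rise was 1.08 ± 0.10 (adjusted p = 7.13e-05, limma). Plod2, which acts on the ends of the chains and so sets the type of cross-link, had 2428.5, 3284 and 4708.5 in the Hnrnpk arm, 1763.5, 2356.5 and 3142 in the lincRNA-p21 arm and 2875, 3332.5 and 4221 in the luciferase arm. It rose by 0.78 ± 0.10 (adjusted p = 0.000503, limma), and the lincRNA-p21 arm was lowest on each day. That arm stood below the Hnrnpk arm by -0.51 ± 0.10 (adjusted p = 0.0415), a call held in 3 of 9 fits that left out a library, and below the luciferase arm by -0.54 ± 0.10 (adjusted p = 0.112, limma). Plod3, which also adds sugars to hydroxylysine, had 3314.5, 3292.5 and 3756.5 in the Hnrnpk arm, 3365, 3806 and 3921 in the lincRNA-p21 arm and 2648, 3554 and 3797.5 in the luciferase arm. Its rise of 0.31 ± 0.11 was called (adjusted p = 0.0466, limma) in 1 of 9 fits that left out a library, and it shares 529 exon bases with the opposite-strand gene Znhit1. Serpinh1 stayed between 11689 and 13911.5 in all 9 libraries, with a difference of 0.09 ± 0.11 between days 12 and 6.

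**Figure D3:**
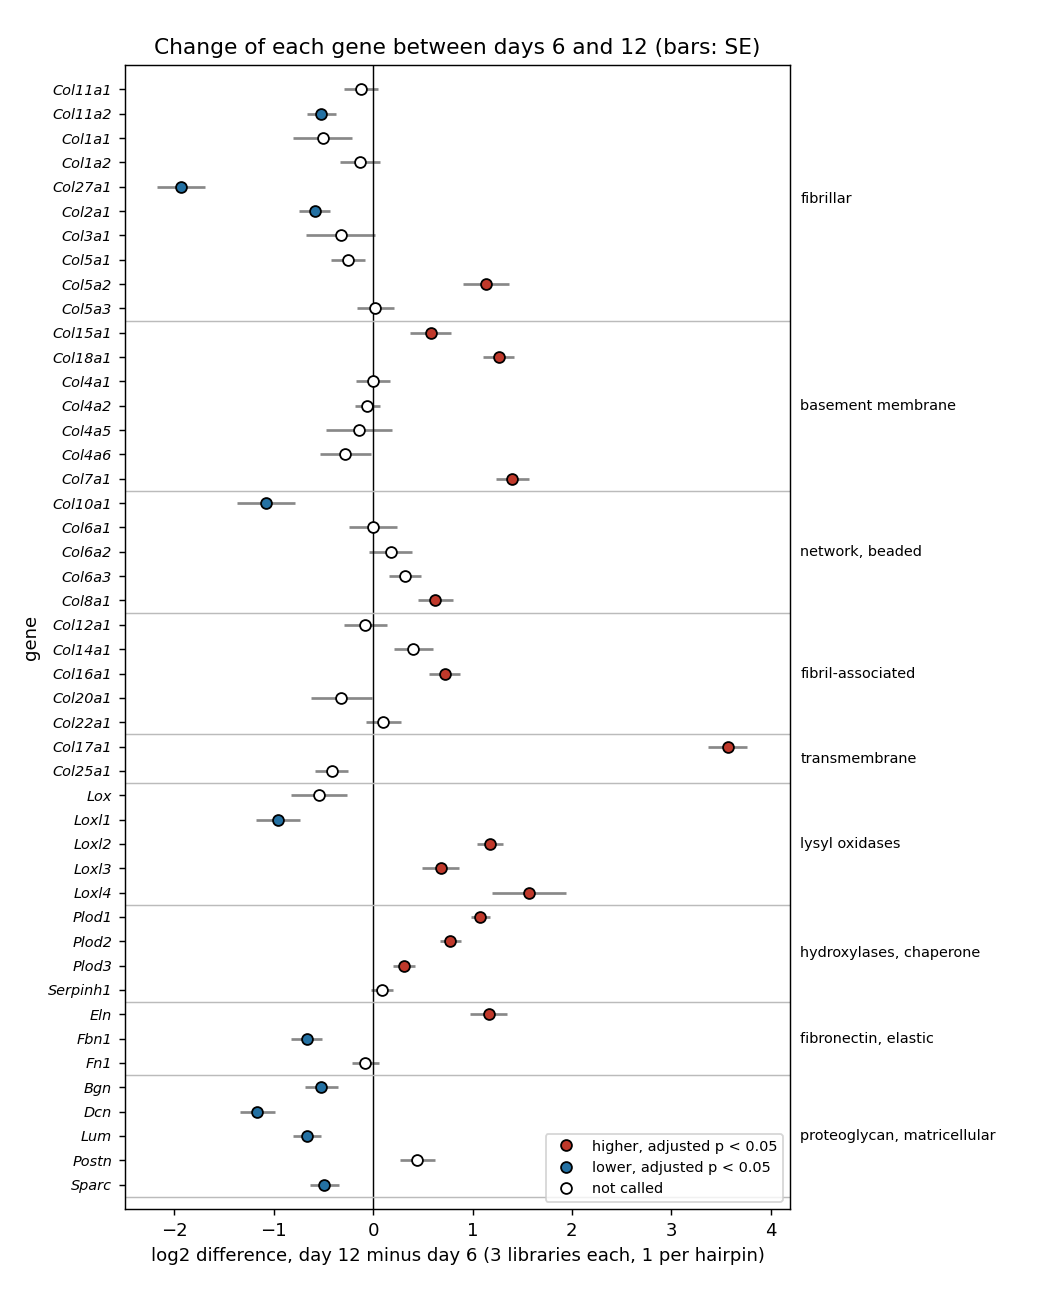
Log2 difference of day 12 minus day 6 for each of the 46 genes (horizontal axis; 3 libraries on each day, 1 per hairpin; bars are SE), grouped by role; filled points passed an adjusted p of 0.05 in limma, red higher and blue lower. Col17a1 lies farthest to the right at 3.57, the Plod genes and Loxl2 to Loxl4 are to the right of 0, and 4 of 5 proteoglycan and matricellular genes are to the left.

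Eln, which encodes elastin, rose between days 6 and 12 and was lower in the Hnrnpk arm. Eln (chr5:134702593-134747323) had 453, 1196 and 1225 in the Hnrnpk arm, 752.5, 3277 and 1852.5 in the lincRNA-p21 arm and 1151, 3984 and 1984 in the luciferase arm. The other arms peaked on day 9, and on each day the Hnrnpk arm was lowest and luciferase highest. The difference of the Hnrnpk arm from luciferase was -1.25 ± 0.19 (adjusted p = 0.00672, limma) and held in all 9 fits that left out a library. The lincRNA-p21 arm was above the Hnrnpk arm by 0.92 ± 0.19 (adjusted p = 0.0417), which held in 3 of 9. Fbn1, the main protein of the microfibrils on which elastin is laid, had 18121.5, 11108.5 and 9447.5 in the Hnrnpk arm, 18213, 14124 and 10206 in the lincRNA-p21 arm and 13720.5, 12124 and 11646 in the luciferase arm. It fell at each step in each arm, with a difference of -0.67 ± 0.15 between days 12 and 6 (adjusted p = 0.00677, limma), and shares exon bases with a gene on the opposite strand. Fn1, fibronectin, on which cells and collagen assemble, lay between 39258 and 56845.5 in all libraries and was not called.

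The proteoglycans and matricellular genes were the group with the most falls, 4 of 5 between days 6 and 12 and none higher. Over all genes tested, 27% were called lower and 22.3% higher. Dcn (chr10:97479609-97518143), encoding decorin, a small proteoglycan that coats type I fibrils, had 1535, 886 and 956 in the Hnrnpk arm, 2626, 1169.5 and 797 in the lincRNA-p21 arm and 1481.5, 894.5 and 682 in the luciferase arm. Its difference of -1.16 ± 0.17 (adjusted p = 0.000895, limma) was the largest of the group, and day 6 was highest in each arm. Lum (chr10:97565128-97572703), encoding lumican, a relative of decorin nearby on the chromosome, had 467, 371.5 and 368 in the Hnrnpk arm, 538, 432 and 270.5 in the lincRNA-p21 arm and 424, 359 and 258 in the luciferase arm. It fell by 0.67 on the log2 scale (adjusted p = 0.00488, limma) and declined at each step in each arm. Bgn, biglycan, had 12032, 6713 and 7618 in the Hnrnpk arm, 8938, 7712 and 5808 in the lincRNA-p21 arm and 8388, 8589 and 6884 in the luciferase arm, and fell by 0.52. Sparc, a collagen-binding protein of cells that remodel matrix, had 38037, 23190 and 22417 in the Hnrnpk arm, 30353.5, 24177 and 21430 in the lincRNA-p21 arm and 24177, 23404 and 20839 in the luciferase arm, and fell by 0.49. For both, the spread between arms was widest on day 6, and each call held in 5 of 9 fits that left out a library. Postn, periostin, had 1187.5, 1180.5 and 1772 in the Hnrnpk arm, 1581.5, 2457 and 2228 in the lincRNA-p21 arm and 1590, 2572 and 1913.5 in the luciferase arm, and was not called.

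The comparison of arms asks which matrix genes differed with each knockdown over the days. With Hnrnpk knockdown, 4 of 46 genes were higher than with luciferase (Col22a1, Lox, Col7a1 and Col18a1) and 5 lower (Eln, Col25a1, Col6a3, Col5a1 and Loxl2), 19.6% of them against 12.5% of all genes tested. By direction this was 8.7% against 5.58% higher and 10.9% against 6.94% lower, with a median over the 46 of 0.01. The calls of Eln, Col7a1, Col25a1 and Col22a1 held whichever library was left out, and those of Col5a1, Col6a3 and Col18a1 were lost without the Hnrnpk or luciferase library of day 9 or of day 12. With lincRNA-p21 knockdown, limma called none of the 46, with 10 at an unadjusted p under 0.05, against 0.00797% (1 gene) of all genes tested, of which 1730 had such an unadjusted p. The largest of the 10 were Col17a1 at -0.88 and Col20a1 at -0.71. The lincRNA-p21 and Hnrnpk arms differed at 4 of 46 genes, 8.7% against 3.26% of all genes. Col5a1 and Eln were higher in the lincRNA-p21 arm, against 1.7% of all genes, and Plod2 and Col17a1 lower, against 1.56%. Both knockdown comparisons use the same luciferase libraries, so their directions are not independent. Of 6 smooth muscle markers 3 were called higher in the Hnrnpk arm, and the summed signals of the 6 were 14376.5, 7445 and 10891 in the Hnrnpk arm, 17517, 8089 and 6829 in the lincRNA-p21 arm and 7012, 6740 and 5747 in the luciferase arm. All 5 keratinocyte markers in the table were called higher as well, and the part of either in these differences was not tested.

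The direction of the matrix difference turned between day 6 and the later days. On day 6, 33 of 46 genes in the Hnrnpk library and 30 of 46 in the lincRNA-p21 library were above the luciferase library, with medians of 0.33 and 0.31, against medians of -0.02 and 0.02 over all genes. Of the fibroblast markers, Thy1, Pdgfrb, Twist1, Twist2, Snai2, Cdh2 and S100a4 were above luciferase in both knockdown libraries of day 6. Pdgfra, Prrx1 and Zeb1 were below luciferase in both, and Vim stood at the highest value of the table in each library of that day. The summed smooth muscle markers given above were also higher in both knockdown libraries of day 6 than in the luciferase library. Among them Acta2, Tagln, Cnn1, Myh11 and Des were higher in both. Smtn was lower in both, at 724 with Hnrnpk and 762.5 with lincRNA-p21 knockdown, against 813. Cd68, the macrophage marker in the table, stood at 780 in the Hnrnpk library and 171 in the lincRNA-p21 library, against 120.5 in the luciferase library. The part of any of these markers in the matrix difference was not tested. On day 9, 32 and 26 were below, with medians of -0.26 and -0.07, against medians of 0.01 and 0.02 over all genes. On day 12, 29 and 29 were below, with medians of -0.18 and -0.19. The median of all genes on day 12 is not given here. The shares of all genes above or below luciferase are not given here for any day. At least 2-fold higher on day 6 were 10 genes in the Hnrnpk library, against 4.53% of all genes, and 4 in the lincRNA-p21 library, against 1.66%. At least 2-fold lower on day 9 were 8 genes in the Hnrnpk library, against 1.33% of all genes, and 1 in the lincRNA-p21 library, against 0.239%. Loxl4, Lox, Col20a1, Col10a1 and Col1a1 led on day 6 in the Hnrnpk library, with differences of 2.34, 2.12, 1.72, 1.62 and 1.51, whereas Eln (-1.73), Col5a1 (-1.19) and Col12a1 (-1.18) were lowest on day 9. All of these are differences between 2 libraries, with no test.

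**Figure D4:**
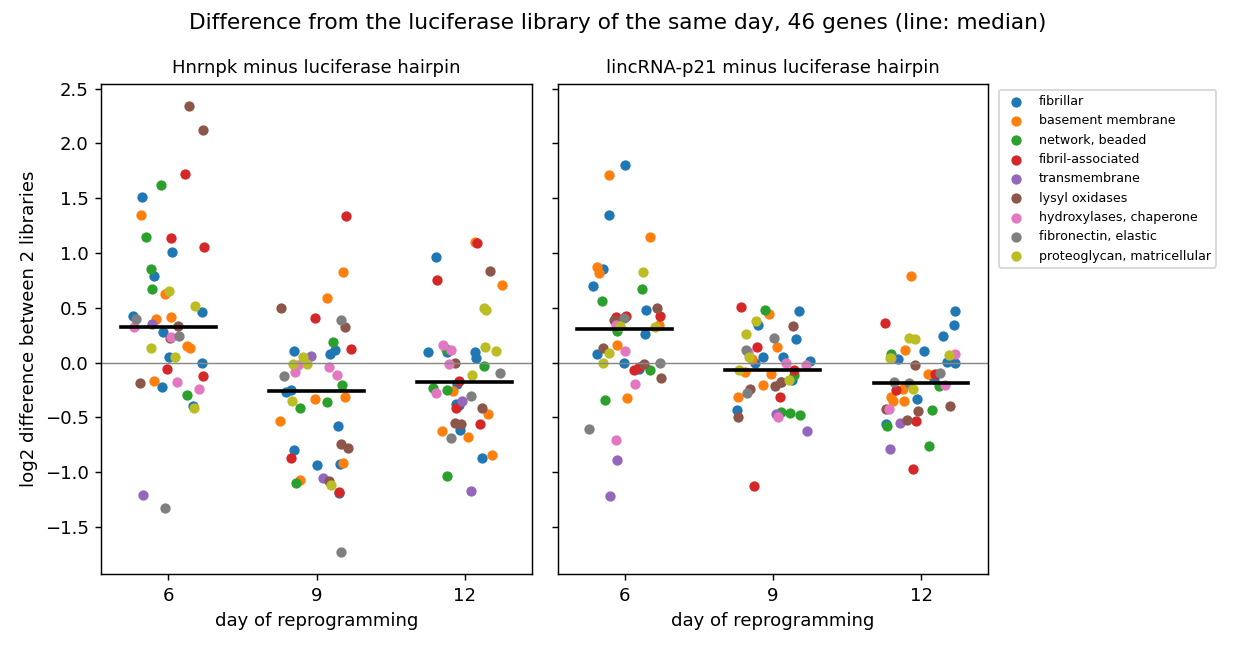
Log2 difference between each knockdown library and the luciferase library of the same day for the 46 genes (points, coloured by role; horizontal spread within a day is only for legibility; line, median), Hnrnpk on the left and lincRNA-p21 on the right. The medians are above 0 on day 6 (0.33 and 0.31) and below 0 on days 9 and 12 in both panels, which share the luciferase libraries.

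Between day 6 and day 12 within an arm, the median difference of the 46 genes was -0.24 with Hnrnpk knockdown, where 27 genes were lower and 19 higher. In the lincRNA-p21 arm it was -0.07, with 24 lower and 21 higher, and in the luciferase arm 0.46, with 12 lower and 33 higher. Over all genes tested the medians were -0.05, -0.04 and -0.04 in the Hnrnpk, lincRNA-p21 and luciferase arms. The shares of all genes that were at least 2-fold lower were 8.32%, 7.65% and 8.1% in these arms, and the matrix genes past that fold numbered 6, 5 and 2. The median matrix gene was therefore lower on day 12 in the Hnrnpk arm and higher in the luciferase arm, in single libraries and with no test. The luciferase library of day 6 was the lowest of the 9 for 11 of the 46 genes (23.9%, against 15.3% of all genes), and the Hnrnpk library of day 6 the highest for 13 (28.3%, against 16.3%). On day 9 the Hnrnpk library was the lowest for 10 (21.7%, against 6.17% of all genes) and the luciferase library the highest for 8 (17.4%, against 6.06%). Ties are counted in each tied library. Col1a2, tied at the highest value of the table, is thus among the 13 and the 8. Col4a2, at 15469 in the Hnrnpk libraries of days 9 and 12, is among the 10.

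When the day 6 libraries were left out, 18 of 46 genes differed between the Hnrnpk and luciferase arms, 4 higher (8.7%, against 11.7% of all genes) and 14 lower (30.4%, against 12.2% of all genes), with 23.9% of all genes called. The 4 higher were the same as with all days. The 14 lower included 4 basement membrane chains that were not called over all days, namely Col4a1, Col4a5, Col4a6 and Col15a1, the last at -0.88 ± 0.09 (adjusted p = 0.00304, limma). Col1a2 was also called lower in this fit, but it stood at the highest value of the table in both luciferase libraries. Without day 9, limma called none of the 46 (0.199% of all genes) and without day 12 it called 1 (2.93%).

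A steady change of the Hnrnpk difference over days 6, 9 and 12 was tested as a slope per 3 days, so that a negative slope is an arm difference that fell over the days. It was called lower for 5 of 46 genes and higher for none, 10.9% against 4.3% of all genes tested called lower, 5.06% called higher and 9.35% called in all. Loxl4 had a slope of -1.17 ± 0.20 (adjusted p = 0.0236), Col20a1 -0.94 ± 0.19 (adjusted p = 0.0301), Col6a1 -0.70 ± 0.17 (adjusted p = 0.0481), Col4a6 -0.63 ± 0.15 (adjusted p = 0.0468) and Col5a3 -0.52 ± 0.12 (adjusted p = 0.0393, limma). All 5 were above luciferase on day 6, by 0.42 to 2.34, and at or below it on day 12. On day 9 the difference was 0.32 for Loxl4, 0.40 for Col20a1, -0.20 for Col6a1, -0.53 for Col4a6 and -0.27 for Col5a3. In each, the larger part of the fall thus came between days 6 and 9. Col20a1, a fibril-associated chain, had 386, 172 and 154.5 in the Hnrnpk arm, 106.5, 53 and 84 in the lincRNA-p21 arm and 110, 127.5 and 174.5 in the luciferase arm. Col5a3, a minor type V chain, had 341, 227.5 and 256.5 in the Hnrnpk arm, 304.5, 245 and 267 in the lincRNA-p21 arm and 252, 275.5 and 398 in the luciferase arm. In both the luciferase values climbed at each step while the Hnrnpk arm was highest on day 6. No slope was called for lincRNA-p21 among the 46, and 0 of all 12541 genes were called. At an unadjusted p under 0.05 (limma) were 10 of the 46, beside 2107 of all 12541 genes. All 5 calls were lost without the luciferase or the Hnrnpk library of day 6, and also without any 1 of the lincRNA-p21 libraries.

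Other genes of matrix assembly give the setting of these changes between days 6 and 12, beside 22.3% of all genes called higher and 27% lower. Of 23 genes for collagen synthesis and processing, 7 rose and 6 fell. P4ha1 and P4ha2, the catalytic subunits of the prolyl hydroxylases that stabilise the helix, rose by 1.59 ± 0.10 and 1.11 ± 0.10. Creb3l1, a transcription factor that drives collagen genes, and Adamts3, a procollagen peptidase, fell by 2.01 and 1.05 on the log2 scale. P4ha1 had 2323, 4063.5 and 7256.5 in the Hnrnpk arm, 2883, 4856 and 8162.5 in the lincRNA-p21 arm and 2923, 5650.5 and 9173 in the luciferase arm, a climb at each step in each arm like that of Plod1 and Plod2. Of 15 genes of elastic fibres and microfibrils, 2 rose and 6 fell, with Fbln5 at -1.57, Efemp1 at -1.51, Mfap2 at -1.49 and Fbn2 at -1.46. These fell while Eln rose. Of 16 further small proteoglycans and matricellular genes, 1 rose and 7 fell, led by Smoc1 at -1.09, Vcan at -1.02, Tnc at -0.90 and Thbs2 at -0.88.

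Of 16 partners of basement membrane collagen, 6 rose and 3 fell. The rises included chains of epithelial laminins, Lamb3 at 2.33 ± 0.41, Lama3 at 2.27 ± 0.16 and Lama5 at 1.74 ± 0.15. Perlecan (Hspg2), the proteoglycan partner of type IV collagen, fell by 0.71 on the log2 scale (adjusted p = 0.00830, limma). In the Hnrnpk arm against luciferase, 3 of the 16 were higher, among them Lama1 by 1.39 and Egfl6 by 1.31, and 0 were lower, beside 5.58% of all genes called higher and 6.94% lower.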

How the data were processed

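RNA isolated with TRIzol was sequenced on an Illumina instrument, per the labels' protocols. The submitters' processing notes name RSEM 1.2.12, Bowtie 1.0.1 and mm10, without their roles. The deposited values are a normalized signal made by the authors; how it was scaled, the number of merged replicates and the strandedness are not given in the sources used here. Column totals differ by 0.0252% and no counts were available, so no count test was run.

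In R 4.3.3 with limma 3.58.1, log2(signal + 10) of the 12541 genes with a mean of at least 20 was fitted with arm and day as factors and an intensity trend (4 residual and 8.46 total degrees of freedom), adjusted by Benjamini-Hochberg at 0.05. Slopes used arm by day in units of 3 days (2 residual degrees of freedom). With 1 library per arm and day, the tests measure how far an arm difference varies over days, or a day difference over arms, not variation between cultures. The script was tested on simulated data. Alternatives changed the added value, filter, trend, scaling, libraries, days and arms fitted.

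The genes, their lists and the tests were chosen with earlier results of these data known. Per-library values are given for the main fibrillar and type IV chains, the cross-linking genes, the 9 named matrix genes and any other member called between arms or in a slope; of each other list up to 4 called genes of largest difference are named, and Hspg2 was chosen after its values were seen. Locations are from GENCODE M21; 14 of 46 genes share exon bases with an opposite-strand gene. Python 3.11.15 was used for locations and motifs. One gene of the lists is not reported here.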

Additional observations from a re-analysis of the deposited data

Results flagged for a closer look

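For 5 matrix genes, the Hnrnpk-minus-luciferase difference changed over the days, by the test of the slope itself (limma, per 3 days). The slopes were -1.17 for Loxl4, -0.94 for Col20a1, -0.70 for Col6a1, -0.63 for Col4a6 and -0.52 for Col5a3. In each, the Hnrnpk library was above luciferase on day 6 and at or below it on day 12, and each call was lost without the luciferase library of day 6.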

How the results depend on the processing

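Counts of called matrix genes stayed within 1.5 times of those reported with another added value, filter, scaling or trend, except that the Hnrnpk slope count was 2 without the trend, where Col5a3, Col6a1 and Col4a6 were lost. For scaling this says little, because the deposited columns already share their highest value and differ by 0.0252% in total. Single calls near the threshold were lost as well: without the trend Loxl2 for Hnrnpk against luciferase, Eln and Col17a1 for lincRNA-p21 against Hnrnpk, Loxl4 for day 9 and Col15a1 and Plod3 for day 12 against day 6, Col17a1 also with an added value of 1, Loxl4 with one of 50, and the Col6a1 slope under quantile normalization. The counts moved more with the libraries fitted. For Hnrnpk against luciferase, 9 genes were called with all libraries, 18 without day 6, 0 without day 9, 1 without day 12, 2 with only those arms, and 4 to 13 when 1 library was left out. The share of all genes called in that comparison moved too. It was 12.5% with all libraries, 23.9% without day 6, 0.199% without day 9 and 2.93% without day 12. For lincRNA-p21 against luciferase the count of 0 became 1 without day 6 and ranged over 0 to 2. For lincRNA-p21 against Hnrnpk, 4 became 8 without day 6 and 0 without day 9 or day 12, with 0 to 9 when 1 library was left out. For day 9 against day 6, 13 became 7 without the lincRNA-p21 arm, with 10 to 21. For day 12 against day 9, 0 became 5 with only those days, with 0 to 2. For day 12 against day 6, 24 became 11 without the lincRNA-p21 arm, with 16 to 27. The slope counts ranged over 0 to 20 for Hnrnpk and 0 to 6 for lincRNA-p21. For the other fits the shares of all genes called are not given here. The changes of these counts therefore cannot be read as particular to the matrix genes. Fewer libraries leave fewer degrees of freedom, and the cause of the other changes was not tested. Leaving out genes at the highest value, an alternative chosen after seeing the data, changed no count. Of the matrix genes it removed only Col1a2, which was called in no comparison over all libraries, so the counts could hardly change. The fit without day 6, in which Col1a2 was called, was not repeated in this way. No called gene changed sign in any alternative. The day factor already matches arms by day, and the arm factor days by arm. No paired analysis was possible because the labels give no replicate numbers to pair beyond that. Depth is unknown, so differences of genes near the low end or the highest value of the scale are the least certain.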
